A study of Mus musculus with 20 samples.

Results

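Wnt ligands, their receptors and their antagonists were followed in bulk tissue of a mouse breast cancer (BC) model. The genes were chosen by a rule on names that does not use their levels, but with earlier results of these data known. The rule took every Wnt, Fzd, Sfrp or Dkk gene with a numbered symbol, and Wif1, Axin2, Lgr4, Lgr5, Lgr6, Lrp5, Lrp6, Rnf43, Znrf3, Lef1, Tcf7, Frzb, Ror1, Ror2 and Notum. Of 15465 genes that held an identifier and values in the 8 BC libraries, 42 met this rule, and 36 of these were high enough to be tested. The libraries came from 4 mice bearing tumours derived from 4T1, a mouse mammary carcinoma cell line, sampled at 28 days. Each mouse gave a primary tumour and a lung metastasis, so all 8 libraries share 1 cell line and the 2 groups share their mice. The labels call the models orthotopic and give no treatment and no genotype beyond the 4T1 origin. The host strain is not given in the sources used here. The comparison asks which genes differ between the primary tumours and the lung metastases as groups.

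Wnt proteins are secreted, lipid-modified ligands that bind Frizzled (Fzd) receptors together with the co-receptors Lrp5 and Lrp6. This stops the destruction of beta-catenin, which then acts with Lef1 or Tcf7 at target genes, among them Axin2, a scaffold that feeds back on the pathway. Other Wnt proteins signal through Fzd with Ror1 or Ror2 and do not need beta-catenin. Sfrp, Frzb and Wif1 proteins bind Wnt outside the cell, Notum removes its lipid, Dkk proteins act on Lrp5 and Lrp6, and Rnf43 and Znrf3 take Fzd off the cell surface unless R-spondins bind Lgr4, Lgr5 or Lgr6. In lung, Wnt signals between mesenchyme and epithelium are known to maintain alveolar stem cells, and in the mammary gland they are known to drive growth and tumours.

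Values are normalised read counts as deposited, on a scale on which the 8 libraries sum to 962401 to 1044330, given as mean ± SD over 4 mice or library by library in the order of mice 1 to 4. Depth was 15447918 to 28995834 reads per library, lowest in the lung metastasis of mouse 3. Changes are log2(value + 1) in lung metastases minus primary tumours, with limma's adjusted p over the 14003 genes tested, and a gene is said to have risen or fallen where that p is under 0.05. The main test compares the groups without pairing by mouse. Its p-values rest on the spread between libraries within each group, not on that of the within-mouse change. A fit with the mouse as a block is among the alternatives. A fold on this scale understates the change of low genes. The pieces were mixtures of cells, and fewer cells of a type cannot be told apart from less RNA per cell.

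The 8 genes listed as tumour epithelium markers (Krt8, Krt18 and others) were detected in both groups. Their summed level was 1560 to 2920 in primary tumours and 912 to 3250 in lung metastases. Epithelial cells of the lung can express such genes too, so this sum does not measure tumour cells alone. Lung markers moved with the comparison. Of 16 lung epithelium genes 13 rose, and their summed level was 169 to 333 in primary tumours and 7930 to 36700 in lung metastases, highest in mouse 3 and then in mice 1, 2 and 4. Of 11 tested lung mesenchyme genes 7 rose (summed level of the 12 genes 246 to 474 against 751 to 2750), and of 8 mesothelium genes 7 rose (78.8 to 183 against 274 to 645). Nkain4 was the only gene of these 3 lists with 0 reads in all 4 primary tumours, and none had 0 reads in all 4 metastases. Among 11 tested fibroblast and matrix genes 1 rose and 4 fell, with summed levels of the 12 genes of 756 to 2610 and 1210 to 2350. All 8 neutrophil genes rose (summed level 196 to 1170 against 7490 to 28600), and so did 5 of 10 endothelial genes (201 to 886 against 602 to 2680). Of the other lists, 2 of 8 pericyte and smooth muscle genes, 1 of 8 T and NK cell genes and 2 of 2 B cell genes tested rose, while 1 pericyte, 1 of 7 macrophage, 1 of 3 adipocyte and 1 of 8 tumour epithelium genes fell. None of 3 skin keratinocyte and 2 skeletal muscle genes tested passed. The part of these cells in the results on Wnt genes was not tested.

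Of the 36 tested members 5 rose in lung metastases and 0 fell: the ligands Wnt4, Wnt3a and Wnt2, the antagonist Sfrp2 and the feedback gene Axin2. That is 13.9% of the tested members, where 9.13% of all genes tested passed, 7.18% as higher and 1.96% as lower. At an unadjusted p under 0.05 there were 12 members, 33.3%, against 23% of all genes, and 3 of these were lower in lung metastases (Fzd6, Wnt10b and Wnt9a). With edgeR 0 members fell and with DESeq2 1 did (Fzd6). The median change was 0.3 over the tested members, also with Wnt3a at its bound, and -0.06 over all genes. Among the 24 members left by a filter on a mean of at least 5 the median was -0.02. The filter on low values let Wnt3a and Wnt4 in through the metastases alone, so the count of genes that rose is partly set by it. The plot of changes by role shows where the 5 stood.

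**Figure D1:**
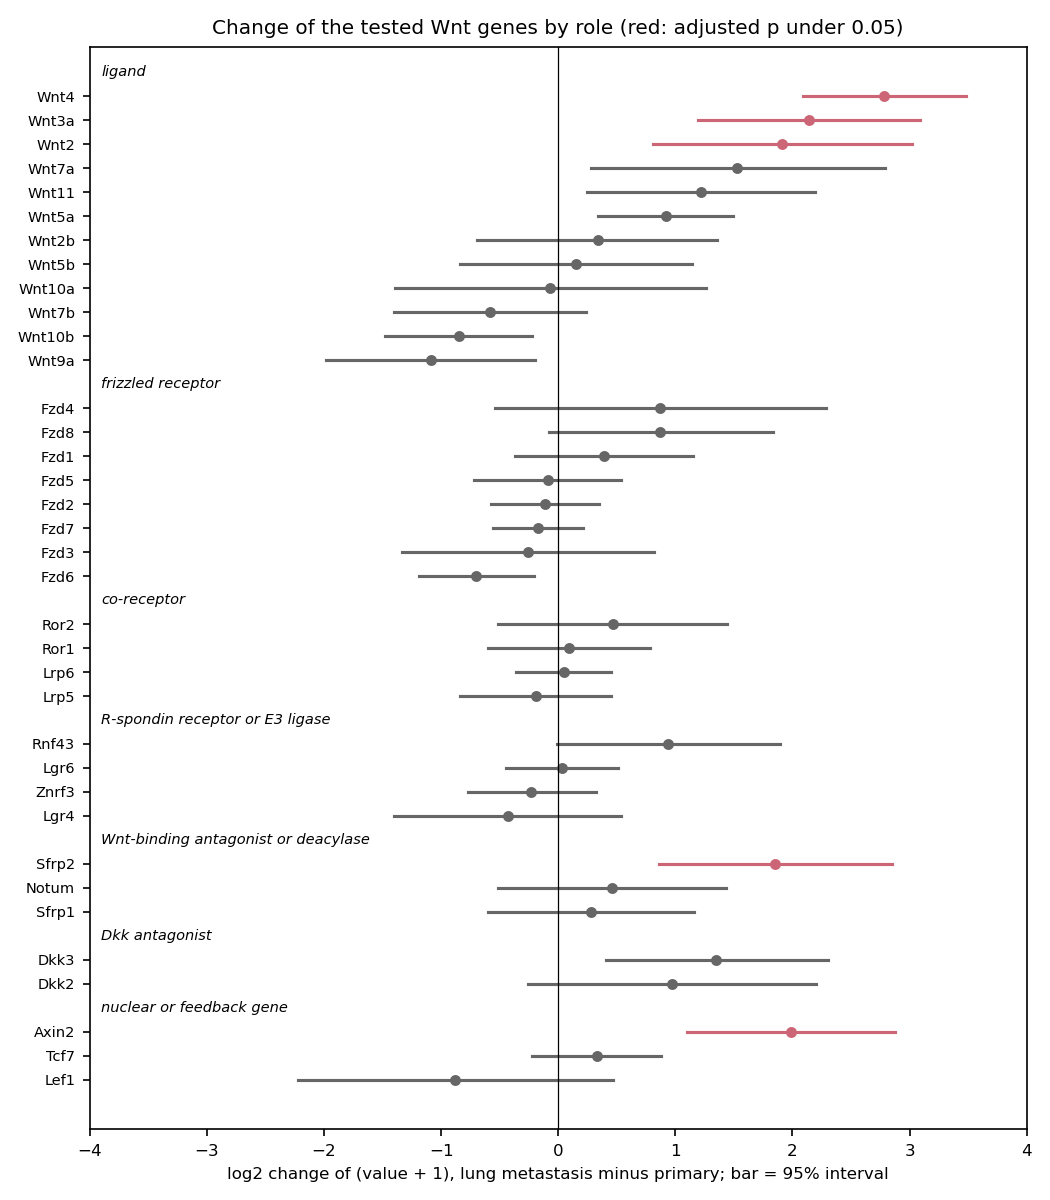
Log2 change of (value + 1), lung metastasis minus primary tumour, for the 36 tested Wnt genes, ordered by role; points are limma estimates over 4 mice per group, bars their 95% intervals, red an adjusted p under 0.05. The 5 red genes lie between 1.85 and 2.78, and the lowest estimate is that of Wnt9a at -1.09.

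Among the ligands, Wnt4, which acts in kidney, gonad and mammary duct development, showed the clearest difference. It stood at 0.636, 0.197, 0.607 and 0.669 in the primary tumours and at 12, 8.15, 6.22 and 12.7 in the lung metastases. Each metastasis held at least 6.22 and no primary tumour reached 1. The group means were 0.527 ± 0.222 and 9.77 ± 3.1, a ratio of 18.5 (log2 change 2.78, SE 0.313, adjusted p = 0.000457). Among the 4 metastases Wnt4 stood in the order of mice 4, 1, 2 and 3. Of the 14 marker sums that of tumour epithelium had this order (1580, 1560, 912 and 3250 in mice 1 to 4), although it did not separate the groups. Dkk2, Lgr4 and Sfrp1 stood in this order too. The order rests in part on near ties, 12.7 and 12 for Wnt4 and 1580 and 1560 for the tumour epithelium sum. The lung epithelium sum was highest in mouse 3 and lowest in mouse 4. The mesothelium and skin keratinocyte sums were highest in mouse 4, at 645 and 48. With 14 sums to match, a shared order of 4 libraries can arise by chance, and the source of Wnt4 was not tested.

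Wnt3a, a ligand of the beta-catenin branch, had 0 reads in all 4 primary tumours. In the lung metastases it stood at 1.78, 2.42, 9.94 and 2.65, from 323 reads in all. Against a floor of 3 reads per library, which covers counting error only, its mean was at least 37.8-fold higher (log2 change 2.14, SE 0.429, adjusted p = 0.0111). That bound holds for the mean, which mouse 3 raised, and is lower for each of the other metastases. The metastasis of mouse 3 had the highest value, and the other 3 lay between 1.78 and 2.65. Among the metastases it also had the highest sums of lung epithelium, lung mesenchyme, endothelium, pericyte and smooth muscle, B cell and neutrophil markers. Wnt3a stood in the order of mice 3, 4, 2 and 1, and the lung epithelium sum in that of mice 3, 1, 2 and 4. The source of Wnt3a was not tested. Without lung metastasis 3 the log2 change was 1.7 (adjusted p = 0.00387). With a pseudocount of 5 the call ended (adjusted p = 0.0606; 3.76e-10 to 0.0606 over its 16 alternatives).

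Wnt2, a ligand known from lung mesenchyme, stood at 2.34, 0, 2.9 and 0.0352 in primary tumours and at 7.2, 8.15, 6.49 and 3.82 in lung metastases. The primary tumours split, with reads in mice 1 and 3 and 1 read or none in mice 2 and 4, and all metastases lay above them. The means were 1.32 ± 1.52 and 6.41 ± 1.86 (log2 change 1.91, SE 0.498, adjusted p = 0.038). This call was the least steady of the 5. It ended with edgeR (adjusted p = 0.305), DESeq2 (0.201) and a pseudocount of 0.1 (0.0843), and without primary tumour 2 (0.0909) or 4 (0.122) or lung metastasis 1 (0.0961) or 2 (0.0953); the range over its 16 alternatives was 0.0124 to 0.305. Of the lung mesenchyme markers, 7 of 11 tested rose, and their sum stood in the order of mice 3, 2, 1 and 4 among the metastases, whereas Wnt2 stood in the order of mice 2, 1, 3 and 4.

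**Figure D2:**
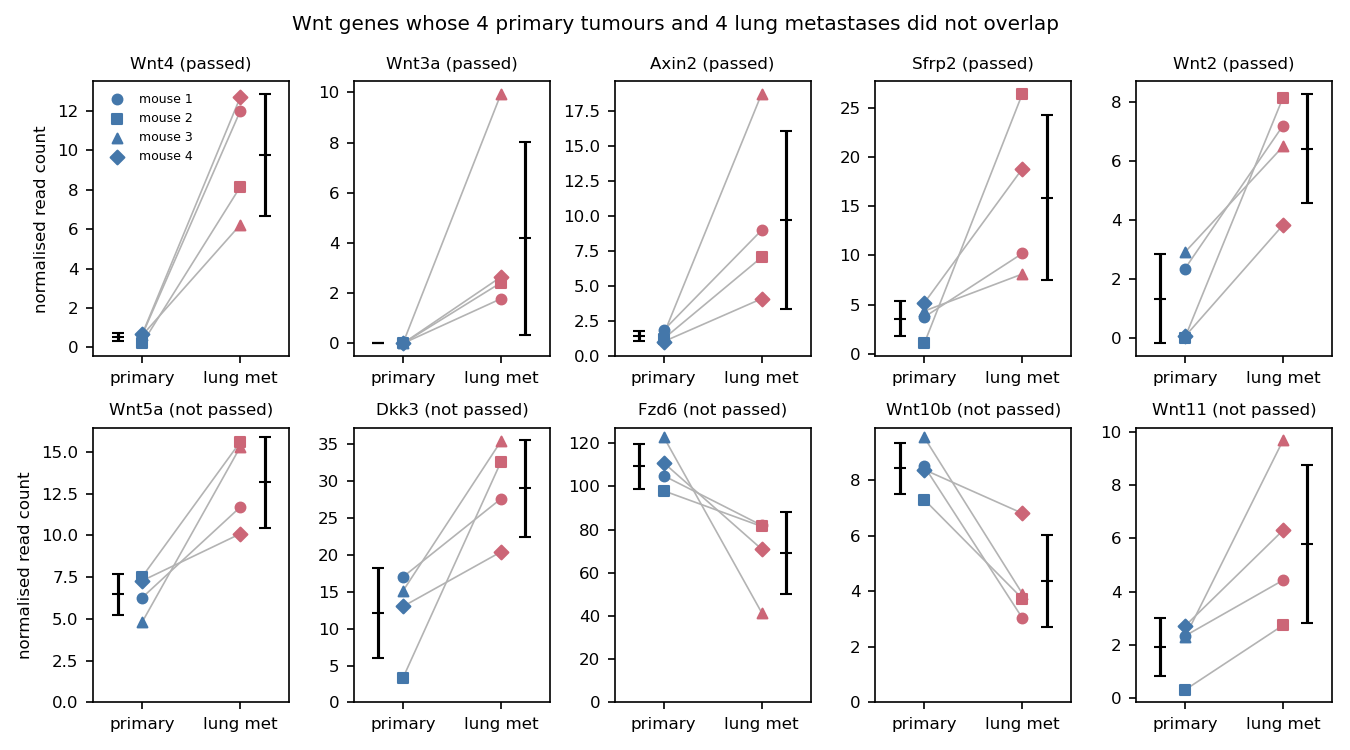
Normalised read count (y, linear) of the 10 tested Wnt genes whose groups did not overlap, in primary tumours (blue) and lung metastases (red); grey lines join tissues of 1 mouse, marker shapes are mice 1 to 4, and black bars are mean ± SD over 4 mice. The upper row passed the test and the lower row did not; Fzd6 and Wnt10b are the 2 genes lower in all metastases, and Wnt3a sits at 0 in all primary tumours.

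A further 5 members had groups that did not overlap and did not pass. In all, 8 of 36 members (22.2%) were higher in every metastasis than in any primary tumour, against 10.4% of all genes tested, and 2 (5.56%) were lower, against 7.56%. Wnt3a and Wnt4 are among the 8. The filter on low values let both in through the metastases alone, so they could only count as higher, and the 22.2% is partly set by it. Wnt5a, the main ligand of the branch without beta-catenin, stood at 6.28, 7.53, 4.82 and 7.29 in primary tumours and at 11.7, 15.6, 15.3 and 10.1 in metastases. Its change was 0.92 (95% interval 0.34 to 1.49, adjusted p = 0.0533), close to the threshold. It passed with median-ratio scaling (0.0485), array weights (0.0198) and DESeq2 (0.00251) and without lung metastasis 4 (0.0374), over a range of 0.00251 to 0.155 in 17 alternatives. Wnt11, another ligand of that branch, stood at 2.34, 0.316, 2.29 and 2.71 against 4.43, 2.74, 9.67 and 6.3 (change 1.22, interval 0.25 to 2.19, adjusted p = 0.122). The lowest metastasis, that of mouse 2, was only just above the highest primary tumour.

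Wnt10b, a beta-catenin ligand known from mammary gland and fat, ran the other way. It stood at 8.5, 7.3, 9.54 and 8.38 in primary tumours and at 3.04, 3.74, 3.92 and 6.81 in metastases (change -0.85, interval -1.48 to -0.22, adjusted p = 0.0972). The metastasis of mouse 4 came nearest to the primary tumours, and without it Wnt10b passed (0.0324), as it did with array weights (0.0162; 0.0162 to 0.228 over 17 alternatives). Wnt9a stood at 13.8, 9.55, 31.6 and 22.6 against 4.27, 9.36, 7.1 and 12.2, lower in the metastasis of each mouse although the groups overlapped (change -1.09, interval -1.98 to -0.2, adjusted p = 0.131). It passed with array weights alone (0.0212; 0.0212 to 0.316). In the RefSeq annotation of GRCm38.p6 Wnt9a is the protein-coding neighbour of Wnt3a, the ligand that had reads in the metastases only.

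Wnt7b was the most abundant ligand, at 357, 224, 321 and 250 in primary tumours and 206, 209, 83.6 and 351 in lung metastases. The metastasis of mouse 3 was far below the rest and that of mouse 4 as high as the highest primary tumours, so the groups overlapped. The change was -0.58 (interval -1.4 to 0.24, adjusted p = 0.381). Per kilobase of exon, the scale on which genes can be set against each other, Wnt7b stood at 62.4 ± 13.3 in primary tumours, followed by Wnt9a at 5.83 ± 2.94, Wnt10a at 2.91 ± 2.21 and Wnt10b at 2.48 ± 0.27. Wnt9a and Wnt10a overlapped within their SD, as did Wnt10a and Wnt10b. In lung metastases Wnt7b stood at 46 ± 23.7 per kilobase, followed by Wnt10a at 3.01 ± 2.51, Wnt2 at 2.84 ± 0.823, Wnt9a at 2.47 ± 1.01, Wnt4 at 2.33 ± 0.74 and Wnt5a at 1.88 ± 0.385, and no neighbours from Wnt10a to Wnt5a differed beyond their SD.

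Wnt7b made up 75.8% to 86% of the summed ligand level per kilobase in the primary tumours. The sum is over the 13 Wnt ligand genes that had a row with BC values, and other Wnt ligands do not enter it. The share of Wnt7b was 74.6%, 71.3%, 34.9% and 78.1% in the metastases of mice 1 to 4. The metastasis of mouse 3 thus stood apart in its make-up, with Wnt10a at 11.9%, Wnt6 at 11% and Wnt3a at 6.94% of the ligand level. Wnt4 took 2.86% to 4.78% in the metastases and 0.0734% to 0.229% in the primary tumours. The summed ligand level itself was 64.1 to 90 per kilobase in primary tumours and 51.8 to 97.5 in metastases, so the range in the metastases covered that in the primary tumours.

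**Figure D3:**
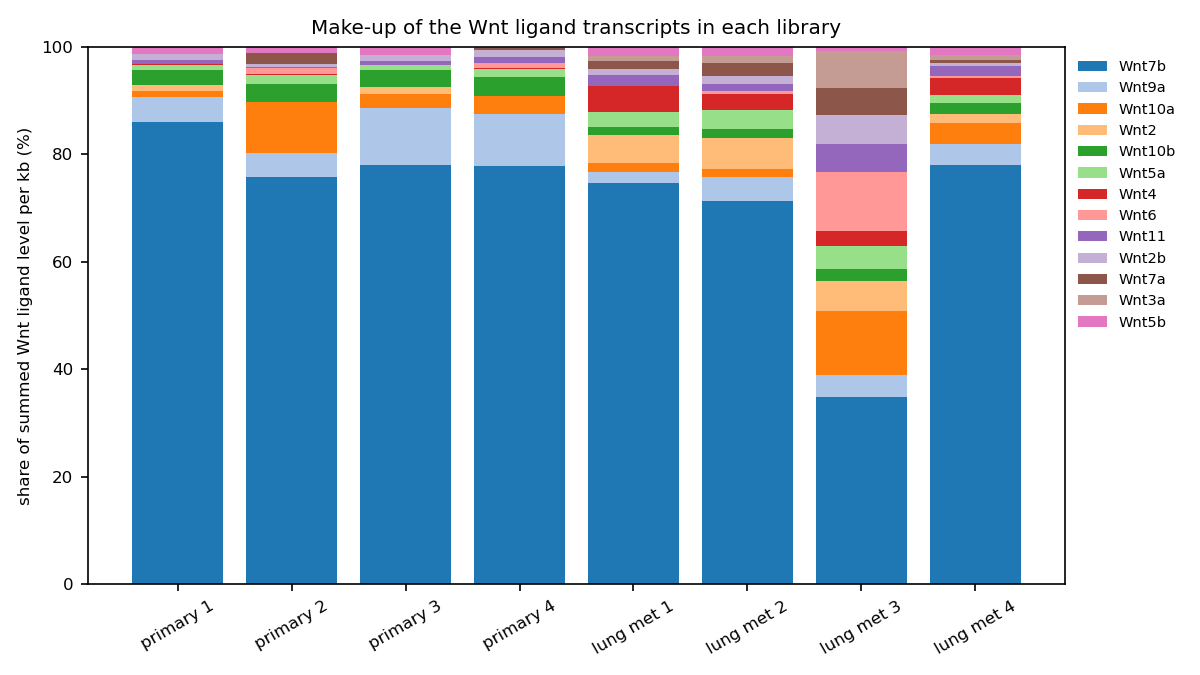
Share (%) of each Wnt ligand in the summed Wnt ligand level per kilobase of exon, by library (4 primary tumours, 4 lung metastases; no error bar, since each bar is 1 library). Wnt7b holds 71.3% or more in all libraries but lung metastasis 3, where it holds 34.9%.

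The remaining ligands gave no call. Wnt7a stood at 0, 4.26, 0 and 0.669 against 2.81, 4.7, 8.25 and 2.06, with each mouse's metastasis above its primary tumour; the primary tumour of mouse 2 lay within the metastases. It did not pass (change 1.53, interval 0.28 to 2.79, adjusted p = 0.132), except with array weights (0.0431) and without primary tumour 2 (0.0235; 0.0235 to 0.482 over 16 alternatives). Wnt2b (2.61 ± 1.1 against 4.09 ± 3.56), Wnt5b (2.31 ± 1.49 against 2.48 ± 1.1) and Wnt10a (7.18 ± 5.45 against 7.42 ± 6.2) overlapped, and their intervals lay within -1.39 and 1.36. Wnt6 was too low to be tested, at 0, 1.7, 0.0337 and 1.3 against 0, 0.747, 11.8 and 0.84. Wnt10a, its protein-coding neighbour in the same annotation, stood at 2.54, 15.1, 5.5 and 5.6 against 2.33, 2.53, 15.2 and 9.62. Wnt6 and Wnt10a shared their order of libraries in each group, mouse 2 first among the primary tumours and mouse 3 first among the metastases.

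No Fzd receptor passed among 8 tested, with limma or edgeR, and 1 had an unadjusted p under 0.05, groups that did not overlap and a call with DESeq2. That was Fzd6, the most abundant Fzd receptor per kilobase except in lung metastasis 3, where Fzd7 was higher. Fzd6 stood at 105, 98, 123 and 111 in primary tumours and 82, 81.5, 41.6 and 71 in metastases. It was lower in the metastasis of each mouse, most so in mouse 3 (change -0.7, interval -1.19 to -0.21, adjusted p = 0.0821). It passed without lung metastasis 3 (0.0377, with a smaller change of -0.48), with array weights (0.0248) and with DESeq2 (0.0438). The range over 17 alternatives was 0.0248 to 0.207. Per kilobase, Fzd6 stood at 24.9 ± 2.4 in primary tumours, above Fzd7 at 14.4 ± 2.06, Fzd2 at 8.59 ± 1.29 and Fzd1 at 6.06 ± 2.99. In metastases Fzd6 (15.8 ± 4.33) and Fzd7 (12.8 ± 1.79) no longer differed beyond their SD. Its share of the summed Fzd level was 40.7% to 43.5% in primary tumours and 20.4% to 35.4% in metastases.

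Fzd7, a receptor known from mammary stem cells, stood at 65.5 ± 9.33 against 58 ± 8.12, with an interval of -0.56 to 0.21. Fzd2 stood at 31.5 ± 4.73 against 29.2 ± 5.66 (-0.57 to 0.35) and Fzd5 at 21.9 ± 2.77 against 21.7 ± 9.74 (-0.72 to 0.54), so changes of more than 2-fold on this scale lie outside these 3 intervals. The intervals of the others were wider. Fzd4, the receptor of the retinal ligand Norrin and known from vessels, stood at 1.35, 7.89, 4.15 and 6.2 against 7.16, 7.58, 32.9 and 2.69 (change 0.87, adjusted p = 0.45). Its metastasis of mouse 3 was far above the rest, and without it the change was 0.27. The summed endothelial marker level was highest in that library too, at 2680 against 602 to 1090. So were the sums of lung epithelium, lung mesenchyme, pericyte and smooth muscle, B cell and neutrophil markers. The source of Fzd4 was not tested. Fzd8 (1.25 ± 0.385 against 3.73 ± 3.13), Fzd1 (25.4 ± 12.5 against 31.7 ± 8.82) and Fzd3 (2.99 ± 2.11 against 2.16 ± 1.17) overlapped. Fzd9 was too low to be tested, at 1.37 ± 0.527 against 0.6 ± 0.151.

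The 4 co-receptor genes did not pass with limma, edgeR or DESeq2, and 0 had an unadjusted p under 0.05. Lrp5 stood at 79.9, 135, 106 and 104 in primary tumours and at 78.8, 93.7, 162 and 57.7 in metastases (change -0.19, interval -0.84 to 0.45), with the highest and the lowest value both in metastases. Lrp6 stood at 90.6 ± 10.5 against 94.7 ± 20.6, with a narrow interval of -0.36 to 0.45. Per kilobase Lrp5 (17.7 ± 3.78) was above Lrp6 (9.67 ± 1.12) in primary tumours, and in metastases (16.3 ± 7.52 and 10.1 ± 2.2) they overlapped within their SD. Within each library, though, Lrp5 stood above Lrp6. Ror1, a receptor tyrosine kinase of the branch without beta-catenin, stood at 4.28 ± 1.62 against 4.49 ± 0.96 and its relative Ror2 at 2.31 ± 1.61 against 3.2 ± 1.25.

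Among the R-spondin receptors, Lgr6 had the highest mean, at 37.5, 27.3, 33.2 and 27 against 37.1, 26.8, 40.2 and 25.1. In mice 1, 2 and 4 the tissues lay close together, and the change was 0.03 (interval -0.45 to 0.51). Lgr4 stood at 7.43, 42.3, 15 and 16.3 against 14.3, 10.9, 8.99 and 16; the primary tumour of mouse 2 alone was high, and there Lgr4 was above Lgr6. Per kilobase Lgr6 (4.65 ± 0.753) and Lgr4 (4 ± 3) overlapped within their SD in primary tumours. Lgr5, an intestinal stem cell marker, was too low to be tested, at 0.449 ± 0.314 against 2.21 ± 1.99. Rnf43 also had each mouse's metastasis above its primary tumour, at 2.03, 0.671, 1.55 and 0.247 against 2.81, 2.85, 5.88 and 1.13, without passing (change 0.94, interval -0.01 to 1.89, adjusted p = 0.225). Znrf3, the other E3 ligase, stood at 22.4 ± 4.68 against 19.2 ± 5.15.

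Of the antagonists, Sfrp2 rose. It stood at 3.74, 1.06, 4.35 and 5.18 in primary tumours and at 10.2, 26.4, 8.11 and 18.8 in metastases, with all metastases above all primary tumours. The means were 3.58 ± 1.78 and 15.9 ± 8.42 (log2 change 1.85, SE 0.448, adjusted p = 0.0273). With the mouse as a block the call ended (adjusted p = 0.06). It also ended without primary tumour 1 (0.0636), 2 (0.0567) or 3 (0.0531) or lung metastasis 2 (0.076) or 4 (0.0518); the range over 17 alternatives was 0.00096 to 0.076. Sfrp2 is known from fibroblasts. Its order among the metastases, mice 2, 4, 1 and 3, was that of the summed fibroblast and matrix markers (1590, 2350, 1210 and 1790 in mice 1 to 4). That sum did not separate the groups, and primary tumour 3 had the highest of all, 2610. With 14 marker sums to match, a shared order of 4 libraries can arise by chance, and the source of Sfrp2 was not tested.

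Sfrp1, the Wnt-binding antagonist with the highest mean, stood at 38.1, 82.2, 30.2 and 64.6 against 79.5, 69.7, 28 and 86.1 (change 0.28, interval -0.6 to 1.16, adjusted p = 0.712). Mouse 3 had the lowest value in each group. Per kilobase Sfrp1 was above Sfrp2 in primary tumours (12.3 ± 5.48 and 1.79 ± 0.888), but overlapped Notum within their SD (4.92 ± 2.43), and in primary tumour 3 Notum was above it. In metastases Sfrp1 (15.1 ± 5.97) overlapped both Sfrp2 (7.92 ± 4.21) and Notum (7.11 ± 4.08) within their SD. Within each metastasis, though, Sfrp1 stood above both, at 45.8% to 51.4% of the summed level per kilobase of this role. Notum stood at 5.96, 14.8, 16.8 and 6.87 against 28.5, 10.4, 7.91 and 17.3, with no common direction over the mice. Sfrp4 (1.23 ± 0.906 against 0.287 ± 0.573), Frzb (0.126 ± 0.183 against 1.32 ± 1.61) and Wif1 (0.617 ± 0.829 against 0.567 ± 0.454) were too low to be tested; Sfrp4 had 0 reads in 3 of the 4 metastases.

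Only Dkk2 and Dkk3 of the Dkk genes had a row with BC values, and neither passed. Dkk3, a divergent member of its family, stood at 17, 3.31, 15.1 and 13 in primary tumours and at 27.6, 32.6, 35.4 and 20.4 in metastases, without overlap. Its change of 1.35 (interval 0.41 to 2.3, adjusted p = 0.0796) passed with array weights (0.0387) and DESeq2 (0.0371; 0.0371 to 0.161 over 17 alternatives). Dkk2 stood at 3.22, 0.828, 1.65 and 2.57 against 8.38, 2.06, 1.62 and 13.3, high in the metastases of mice 1 and 4 alone (change 0.97, interval -0.26 to 2.2, adjusted p = 0.33).

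Axin2, which is widely used as a readout of beta-catenin signalling, rose. It stood at 1.83, 1.22, 1.52 and 1.02 in primary tumours and at 8.97, 7.04, 18.7 and 4.08 in metastases, with no overlap. The means were 1.4 ± 0.352 and 9.71 ± 6.34, a ratio of 6.95 (log2 change 1.99, SE 0.403, adjusted p = 0.0115). The metastases stood in the order of mice 3, 1, 2 and 4, which was that of the lung epithelium, endothelium and B cell sums alike; 4 of the 36 tested members had this order (Axin2, Fzd8, Lef1 and Lgr6). Without lung metastasis 3 the log2 change was 1.64 (adjusted p = 0.00853; 3.54e-06 to 0.0456 over 17 alternatives). Neither nuclear partner of beta-catenin passed. Tcf7 stood at 8.38, 10.8, 10.9 and 13.3 against 11.6, 13.4, 18.3 and 12.4 (change 0.33, interval -0.22 to 0.88). Lef1 stood at 12.8, 2.68, 10.3 and 11.2 against 7.55, 4.52, 7.64 and 0.504 (change -0.88, interval -2.22 to 0.47), lowest in the metastasis of mouse 4.

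**Figure D4:**
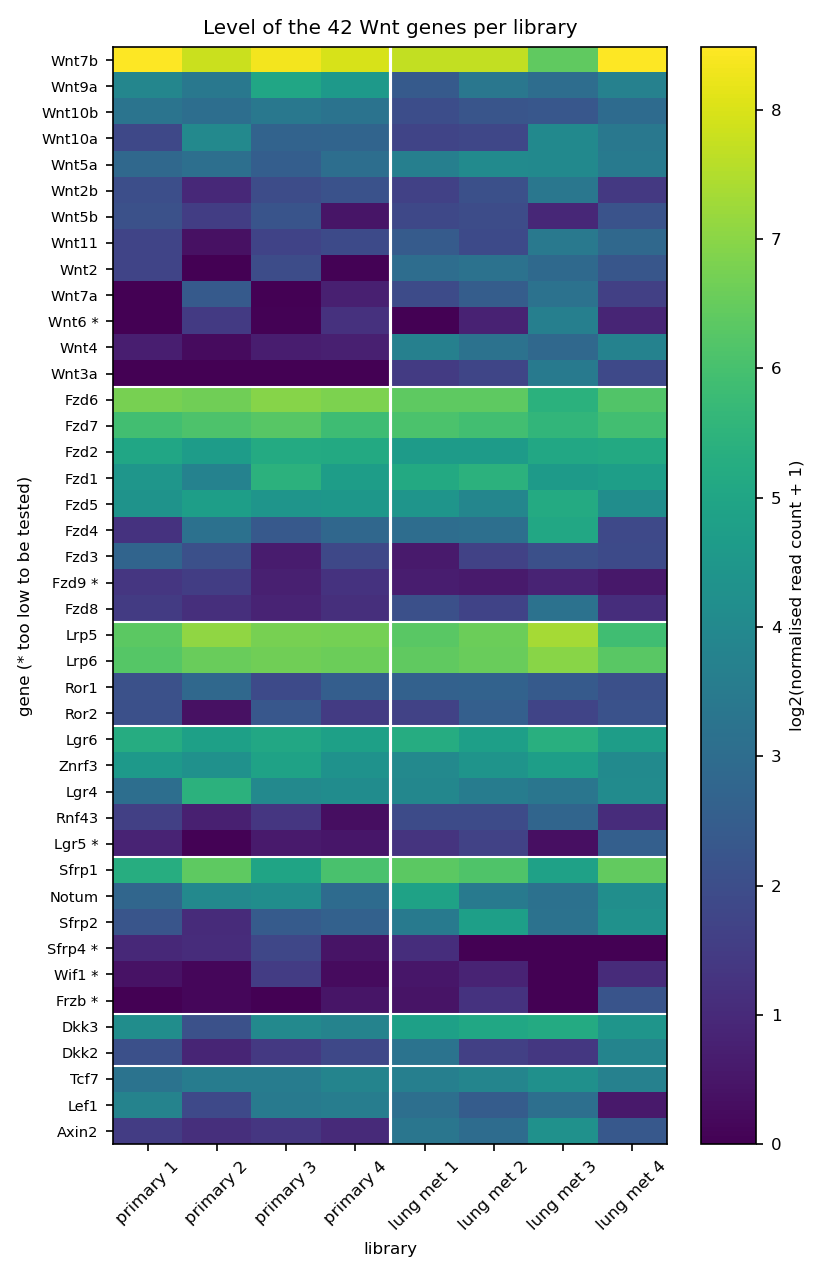
Level of all 42 Wnt genes as log2(normalised read count + 1) (colour) in each of the 8 libraries (columns), in blocks by role; a star marks the 6 genes too low to be tested. Wnt7b is the brightest ligand, Fzd6 the brightest Fzd receptor outside lung metastasis 3, and Wnt4, Wnt3a and Axin2 are dark in all 4 primary tumours.

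The start-site windows of the 5 genes that rose are printed because these genes rose in the same comparison. They are RefSeq sequences of GRCm38.p6, from 250 bases before to 50 after the start, and 27 of the 42 genes had such an entry. Capitals mark CG dinucleotides. Wnt4 is at chr4:137277385-137277684 (plus strand), Wnt3a at chr11:59290702-59291001 (minus), Wnt2 at chr6:18030396-18030695 (minus), Sfrp2 at chr3:83766071-83766370 (plus) and Axin2 at chr11:108920099-108920398 (plus).
Wnt4: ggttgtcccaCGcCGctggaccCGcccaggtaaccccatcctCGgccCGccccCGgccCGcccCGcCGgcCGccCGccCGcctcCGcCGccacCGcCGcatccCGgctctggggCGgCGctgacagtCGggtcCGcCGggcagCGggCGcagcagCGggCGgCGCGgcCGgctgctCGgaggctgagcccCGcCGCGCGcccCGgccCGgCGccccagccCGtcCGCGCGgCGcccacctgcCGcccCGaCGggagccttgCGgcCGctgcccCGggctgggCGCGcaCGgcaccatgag
Wnt3a: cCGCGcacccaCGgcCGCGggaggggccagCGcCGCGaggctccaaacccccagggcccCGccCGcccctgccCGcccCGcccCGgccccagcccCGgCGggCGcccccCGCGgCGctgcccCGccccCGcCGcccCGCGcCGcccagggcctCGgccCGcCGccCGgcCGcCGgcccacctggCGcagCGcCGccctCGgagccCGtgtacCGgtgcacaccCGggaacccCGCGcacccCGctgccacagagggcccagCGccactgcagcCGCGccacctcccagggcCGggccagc
Wnt2: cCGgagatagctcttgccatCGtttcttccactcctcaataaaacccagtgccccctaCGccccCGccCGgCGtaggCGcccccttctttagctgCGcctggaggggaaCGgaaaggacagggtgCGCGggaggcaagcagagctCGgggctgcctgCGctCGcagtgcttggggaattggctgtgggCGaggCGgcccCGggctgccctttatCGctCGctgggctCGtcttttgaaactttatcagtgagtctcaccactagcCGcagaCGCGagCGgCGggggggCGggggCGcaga
Sfrp2: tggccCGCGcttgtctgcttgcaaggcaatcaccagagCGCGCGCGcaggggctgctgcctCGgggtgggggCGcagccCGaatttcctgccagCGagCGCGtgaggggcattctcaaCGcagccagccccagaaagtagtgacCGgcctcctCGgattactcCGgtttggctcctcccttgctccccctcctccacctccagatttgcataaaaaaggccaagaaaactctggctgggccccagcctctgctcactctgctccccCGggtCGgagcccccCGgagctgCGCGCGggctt
Axin2: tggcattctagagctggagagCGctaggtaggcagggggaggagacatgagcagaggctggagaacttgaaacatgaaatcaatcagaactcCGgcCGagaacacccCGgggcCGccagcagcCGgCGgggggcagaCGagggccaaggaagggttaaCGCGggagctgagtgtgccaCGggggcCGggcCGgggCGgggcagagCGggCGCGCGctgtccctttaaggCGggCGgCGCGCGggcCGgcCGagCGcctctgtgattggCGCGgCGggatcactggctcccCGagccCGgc

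All 5 windows were richer in CG than the median of all windows, as was the median window of the Wnt genes. They held 51 (Wnt4), 45 (Wnt3a), 27 (Wnt2), 22 (Sfrp2) and 31 (Axin2) CG dinucleotides, against a median of 7 over all 32851 windows of the table and 24 over the 35 windows of the Wnt genes. G and C made up 84.3%, 86.3%, 65.7%, 66% and 70% of their bases. The median was 52.7% over all windows and 66.7% over the windows of the Wnt genes, so Wnt2 and Sfrp2 lay below the latter. A core of the TCF/LEF motif, spelled CTTTGAA, or as the variants CTTTGAT and also CTTTGTA and lastly CTTTGTT, on either strand, the only motif searched, was in none of the 5 windows; it was in 4 of the 35 windows of the Wnt genes (11.4%), those of Fzd7, Lef1, Wnt11 and Wnt5b, and in 16.9% of all windows. These letters can stand elsewhere in a gene, and a window without them says nothing about the factor.

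Of 73 other genes of the pathway, on a list made with earlier results of these data known, 60 had a row and were tested. Of these 6 rose and 2 fell, and their median change was -0.06, as over all genes. Of all genes tested 7.18% rose and 1.96% fell, which is the background for each list below too. Rspo1, an R-spondin, was at 0 reads in all primary tumours and at 6.17, 14.9, 18.3 and 5.8 in metastases. The filter on low values let Rspo1 in through the metastases alone, so it could only count as higher. Rspo3 stood at 5.73 ± 3.9 against 3.67 ± 1.31 and did not pass. Nkd1, an inhibitor that is itself a known Wnt target, rose from 0.907 ± 0.374 to 48 ± 39.6 (log2 change 4.4, SE 0.47, adjusted p = 0.000366). Its values of 34.5, 33.8, 106 and 17.5 in the metastases were highest in mouse 3 and lowest in mouse 4, as for Axin2. Its relative Nkd2 did not pass (5.86 ± 2.49 against 6.84 ± 6.04).

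Of 13 other receptor and planar polarity genes, 2 rose and 1 fell. Prickle1 rose from 15.1 ± 4.11 to 41.7 ± 14.8 and Prickle2 from 1.09 ± 0.477 to 32.1 ± 27.3; both encode cytoplasmic polarity proteins. The call of Prickle1 ended without primary tumour 4 (adjusted p = 0.0556; 0.000206 to 0.0556 over 17 alternatives). Ptk7, a Wnt co-receptor of the polarity branch, fell from 137 ± 9.74 to 85 ± 18.3 (log2 change -0.71, adjusted p = 0.0333). Its call ended without any single primary tumour (0.074 to 0.119) or lung metastasis 1 (0.0993), over a range of 0.00437 to 0.119 in 17 alternatives. Of 10 known target genes 2 rose, Nrcam (1.72 ± 0.495 to 16.3 ± 5.37) and the transcription factor gene Tbx3 (3.05 ± 0.375 to 37.6 ± 33.8). Only 5 of the 10 had a change above 0, and their median change was 0.05. Myc stood at 156 ± 22.4 against 91.2 ± 43.1 and Wisp1 at 37 ± 25.1 against 12.6 ± 6.36, both without passing. Nkd1, Prickle2 and Tbx3 shared with Axin2 the order of mice 3, 1, 2 and 4 among the metastases, that of the lung epithelium, endothelium and B cell sums. Nrcam had the order of Sfrp2, mice 2, 4, 1 and 3. The part of these cells in the rises was not tested.

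Of 16 cytoplasmic genes 1 fell, Dvl1, a Dishevelled adaptor, from 142, 137, 171 and 141 to 84.5, 96.5, 88.6 and 86.7 (log2 change -0.72, SE 0.143, adjusted p = 0.0107). The beta-catenin gene Ctnnb1 stood at 947 ± 140 against 732 ± 128 and did not pass. The 11 nuclear genes had changes of -0.55 to 0.67 and did not pass with limma; 1 had an unadjusted p under 0.05 (Bcl9). Of 4 genes of secretion and agonists 1 rose (Rspo1), and Wls, which carries Wnt proteins out of the cell, stood at 321 ± 47.3 against 212 ± 73.6 without passing.

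**Figure D5:**
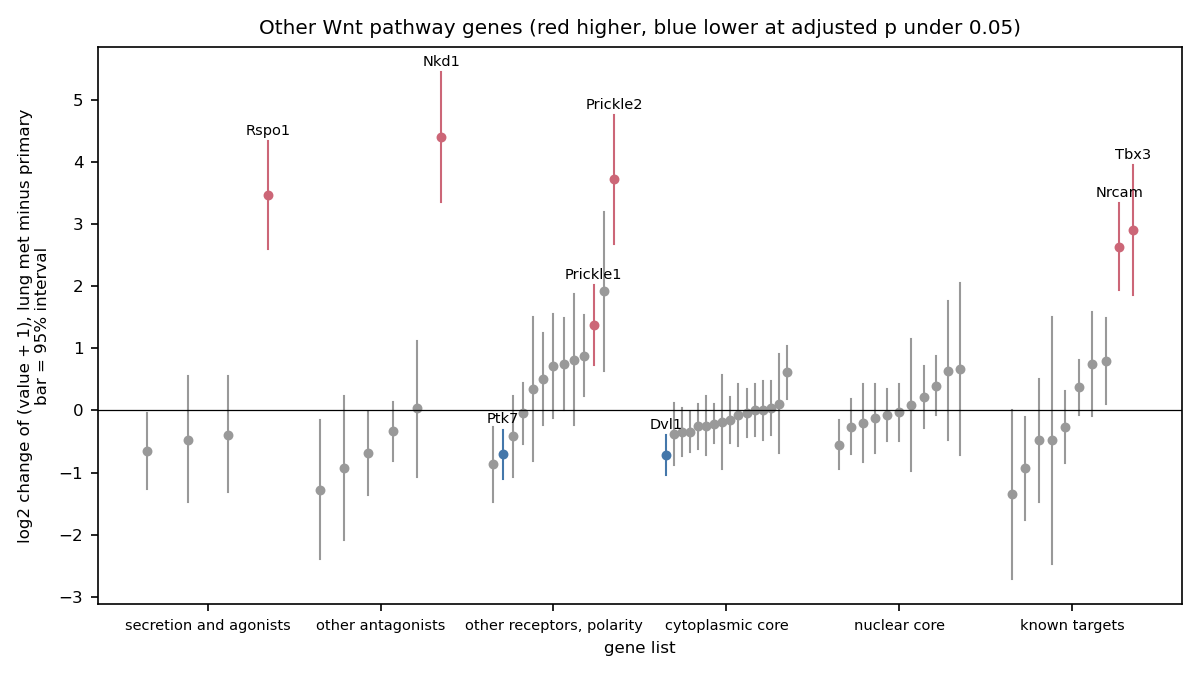
Log2 change of (value + 1), lung metastasis minus primary tumour, of the 60 other tested Wnt pathway genes in 6 lists; points are limma estimates over 4 mice per group, bars 95% intervals, red genes rose and blue genes fell. Nkd1 is the highest point at 4.4, and the points of the cytoplasmic and nuclear core lie between -0.72 and 0.67.

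Some exons of 9 members overlap a gene on the other strand in GENCODE M21: Axin2, Sfrp2, Wnt5a, Wnt7b, Wnt11, Fzd5, Fzd6, Lef1 and Notum. The kit named in the labels is not described as keeping strand, so reads in such stretches cannot be told apart. Of the 2 genes that rose here, the stretch is 209 bases in Axin2 and 347 in Sfrp2.

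The lung metastasis of mouse 3 was an extreme library for many members. It was the highest of the 4 metastases for 18 of the 36 tested members and the lowest for 11. The metastasis of mouse 4 was the highest for 9 and the lowest for 14. These shares were not counted over all genes, so they cannot be read as particular to the Wnt genes. Lung metastasis 3 had the fewest reads, the highest lung epithelium sum (36700) and the lowest tumour epithelium sum (912). Without it, the 5 members still passed and Fzd6 passed as lower.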

How the data were processed

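RNA of bulk tumour tissue was sequenced from 4 mice, each with a primary tumour and a lung metastasis. The values the authors deposited are a normalised signal per gene, with column totals of 962401 to 1044330. Divided by what a single read is worth, 100% of values came out whole (within 0.05 reads), which gave back reads per gene. The build is mm9 per the submitters' processing notes, and aligner, counter and annotation: not given in the sources used here. Of 37583 rows, 15465 held an identifier and BC values. A further 12 sample columns were not used.

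Genes that reached 1 in 4 or more of 8 libraries were tested with limma 3.58.1 (intensity trend, R 4.3.3, two-sided) on log2(value + 1), adjusted by Benjamini-Hochberg over 14003 genes. Depth was 15447918 to 28995834 reads, and 3 reads per library were taken as the floor of a gene at 0, which covers counting error only. The alternatives were pseudocounts of 0.1 and 5, other filters, median-ratio scaling, array weights, a mouse block, edgeR 4.0.16 and DESeq2 1.42.0 on recovered reads, and each library left out. The fit was tested on simulated data, with changes set only in genes of a mean above 5 and 1 fixed dispersion. That does not cover lower genes such as Wnt2 and Wnt3a. Titles pair the tissues by mouse; the correlation of same-mouse deviations was -0.15 to 0.1 (median 0.02).

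Members and lists were chosen with earlier results of these data known. By rule, every value was given for members that passed, had groups without overlap or had the highest mean of their role, and pathway genes were named where they passed. Other members and genes with values in the text (such as Wnt9a, Wnt7a, Fzd4, Rspo3, Nkd2, Myc, Wisp1, Ctnnb1, Wls and Bcl9) were chosen after their values were seen. Lengths are summed GENCODE M21 exons. Proteins were not used here.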

Additional observations from a re-analysis of the deposited data

Results flagged for a closer look

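In 4 of 72 groups of 4 libraries, 1 library stood far from the other 3; chance gives about 1 in 20 groups. The lung metastasis of mouse 3 was such a library for Fzd4, at 32.9 where the other metastases lay between 2.69 and 7.58, and for Wnt3a, at 9.94 where the others lay between 1.78 and 2.65. The primary tumour of mouse 2 stood apart for Wnt4, at 0.197 against 0.607 to 0.669 in the other primary tumours, and for Wnt7a, at 4.26 against 0 to 0.669.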

How the results depend on the processing

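Over 44 genes, 680 of 736 alternative values kept their direction and their side of the threshold. Calls ended in 20 (5 genes), began in 14 (6 genes) and the direction turned in 22 (9 genes, none of them called). Members that rose numbered 3 with a filter on a mean of at least 5, which tests 24 members, and 8 with array weights, and ranged from 3 (without lung metastasis 2) to 5 with 1 library left out. Members that fell numbered 3 with array weights and 1 with DESeq2, and ranged from 0 to 1 with 1 library left out (Fzd6 without lung metastasis 3, Wnt10b without lung metastasis 4). All genes called numbered 2283 with array weights and 1985 with DESeq2, and ranged from 711 to 1603 with 1 library left out; the lowest were without primary tumours 4 (711), 1 (851) and 3 (852). Other pathway genes called numbered 13 with array weights and 6 to 11 with 1 library left out. With the mouse as a replicate block 4 members rose, 0 fell, 1112 genes and 9 pathway genes were called, and the block ended no other member's call than that of Sfrp2 (adjusted p = 0.06). The direction turned with array weights for Lrp6 (-0.07) and Wnt2b (-0.07), with edgeR for Fzd5 (0.02) and Wnt10a (0.08) and with DESeq2 for Fzd5 (0.05) and Wnt10a (0.12). With 1 library left out the changes ranged from -0.65 to 0.06 for Fzd3, -0.35 to 0.09 for Fzd5, -0.08 to 0.14 for Lgr6, -0.47 to 0.02 for Lrp5, -0.09 to 0.13 for Lrp6, -0.06 to 0.26 for Ror1, -0.49 to 0.33 for Wnt10a, -0.08 to 0.58 for Wnt2b and -0.22 to 0.41 for Wnt5b. The cause of these shifts was not tested. Depth limits the low members: Wnt3a rests on 323 reads and Wnt4 in primary tumours on 58.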
